A study of Mus musculus with 5 samples.

Results

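A set of 10 very long genes, most of them best known from neurons and 1, Dmd, from muscle and brain, was followed through the peak lists of an Nr1d1 ChIP-seq experiment in mouse Th1 cells. The genes were Csmd1, Csmd3, Dmd, Ntm, Rbfox1, Auts2, Galnt17, Magi2, Lrp1b and Cntnap2. They had been picked because earlier counts of these data gave many of them numerous peaks, so their counts are a description and were not tested. A peak belonged to a gene when the deposited HOMER annotation named that gene as the one with the nearest transcription start site (TSS), and Galnt17 was matched under its older symbol Wbscr17. By this rule the 10 genes, of 12195 that were nearest to any peak, held 168 of the 19586 ChIP peaks and 148 of the 17111 peaks of the IgG mock. They also held 129 of the 14471 ChIP-specific peaks, which are the ChIP peaks that no IgG peak overlapped.

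The study mapped where Nr1d1 (REV-ERBα) is found on chromatin in Th1 cells. CD44-depleted naive CD4 T cells from secondary lymphoid organs of wild-type C57BL/6 mice, 4 to 6 weeks old, were activated with anti-CD3 and anti-CD28. They were given IL-12, IFNγ and anti-IL-4, harvested after 3 to 4 days and fixed with 1% formaldehyde for 30 minutes. All 5 libraries, 3 of the Nr1d1 ChIP, 1 IgG mock and 1 input, came from such cells, and how many mice or cultures stood behind each was not given in the labels. The antibody label names the Nr1d1 antibody on the mock and the input as well, so the groups rest on the sample titles. Peaks were listed over the input for each antibody as a whole, with a length and a false discovery rate (FDR) but no height. The spread between the 3 ChIP libraries and the read depth are therefore unknown, and the intervals below cover the counting of peaks only. The ChIP and IgG lists share that 1 input.

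Nr1d1 is a nuclear receptor of the circadian clock that binds DNA at ROR response elements, which contain the sequence AGGTCA, and represses genes by recruiting corepressor complexes. The genes described here consist almost wholly of introns. Most of them encode proteins of cell adhesion, synapses and the neuronal surface, or regulators of RNA and transcription in neurons. Exceptions are Galnt17, of the GalNAc-transferase family, and Dmd, the gene of dystrophin. None of the genes described here is among those that define T helper cells.

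Only 1 of the promoter windows available for these genes contained a peak, and its sequence is shown because it is the one place where a start site of theirs and the peaks can be read at the level of bases. RefSeq windows on GRCm38.p6 were at hand for 6 of the 10 genes, 11 windows in all. The window belongs to Magi2, the gene of a scaffold protein of synapses and tight junctions. It covers the 250 bases before a Magi2 start site at chr5:19226796-19227045 on the plus strand, printed 5′ to 3′, and capitals mark the 195 bases under the ChIP peak.
Magi2 promoter: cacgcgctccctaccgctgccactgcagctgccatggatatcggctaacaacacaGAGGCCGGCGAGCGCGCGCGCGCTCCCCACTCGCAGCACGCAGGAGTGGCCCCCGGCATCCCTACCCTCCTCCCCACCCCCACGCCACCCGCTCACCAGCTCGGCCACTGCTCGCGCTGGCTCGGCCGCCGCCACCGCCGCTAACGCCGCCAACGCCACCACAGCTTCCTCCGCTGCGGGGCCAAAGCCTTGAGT
The ChIP peak ran from 19226851 to 19227074 (FDR 0.0222) and an IgG peak from 19226926 to 19227124 (FDR 0.0364), so that 120 bases of the window lay under both. This Magi2 peak was thus among those also seen with IgG. The letters AGGTCA were found 0 times in this window on either strand, and 14.0% of 32851 RefSeq windows of the same length held them at least once. The G and C content of the window was 72.0%, against a median of 52.4% over those windows.

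As a group, the 10 genes had ChIP peaks both over IgG peaks and apart from them. Of their 168 ChIP peaks, 39 overlapped an IgG peak by 1 bp or more, which is 23.2% (Wilson 95% interval 17.5 to 30.2), beside 26.1% of all ChIP peaks. Of their 148 IgG peaks, 39 overlapped a ChIP peak, which is 26.4% (19.9 to 34.0), beside 29.9% of all IgG peaks. The mock thus gave 148 peaks beside the 168 of the ChIP. At an FDR of at most 0.01 it gave the more, 68 against 56. Low FDRs were commoner in the whole IgG list as well: 17.1% of all IgG and 9.0% of all ChIP peaks had an FDR printed as 0. The share of all IgG peaks at the limit of 0.01 is not given here, so nothing is read from this reversal about the 10 genes. Of those 56 ChIP peaks, 42.9% overlapped an IgG peak of the same limit, beside 39.1% of all ChIP peaks at that limit. The limit kept 33.3% of the ChIP peaks of these genes (26.6 to 40.8), beside 41.2% of all ChIP peaks. Without that limit, ChIP peaks outnumbered IgG peaks in 5 of the genes, and IgG peaks were the more numerous in the other 5. Each of the 10 genes had at least 1 peak of each kind, where 22.0% of 21887 protein-coding genes were nearest to a ChIP peak. The same share was 17.5% for ChIP-specific peaks and 17.0% for those of IgG. The choice of the genes fixed these shares, and nothing is read from them.

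**Figure D1:**
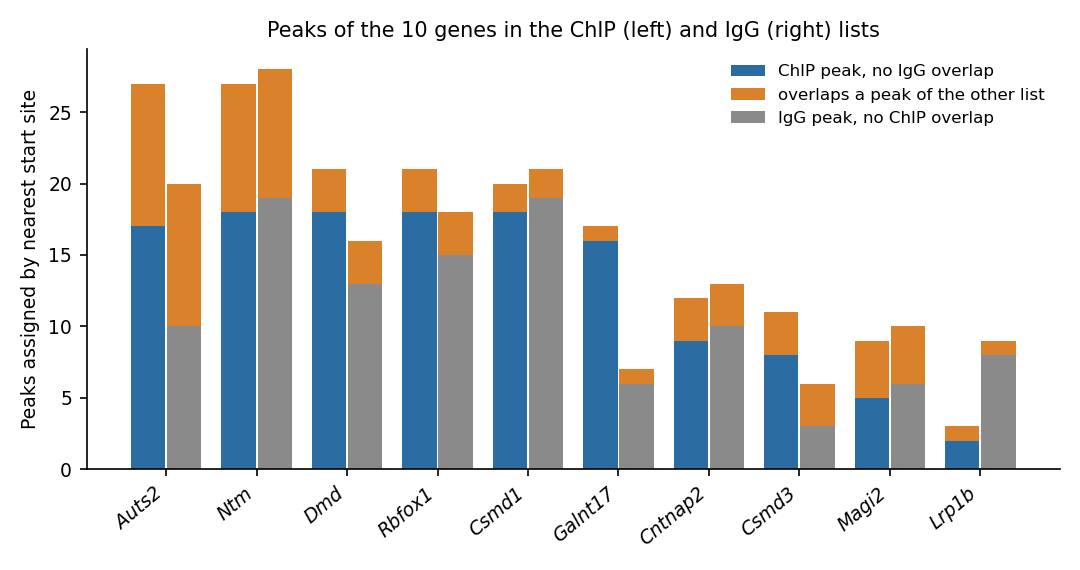
Number of peaks assigned to each of the 10 genes by nearest start site (vertical axis), with the ChIP list in the left bar and the IgG list in the right bar of each pair. Orange marks peaks that overlap the other list. Auts2 and Ntm have 27 ChIP peaks each and Lrp1b has 3, and Galnt17 has 17 ChIP peaks beside 7 of IgG.

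Auts2 and Ntm stood first of all genes by ChIP peaks. Gene positions here and below are RefSeq bodies on GRCm38.p6, which is the mm10 build of the peaks. Auts2 (chromosome 5, 131437333 to 132543220), which encodes a nuclear protein of neuronal development, was nearest to 27 ChIP and 20 IgG peaks. Of its ChIP peaks, 10 overlapped an IgG peak (37.0%, 21.5 to 55.8). Ntm (chromosome 9, 28994749 to 29963269), which encodes the cell adhesion protein neurotrimin, also had 27 ChIP peaks, and its 28 IgG peaks put it first in the IgG list too. Of the ChIP peaks of Ntm, 9 were shared with IgG (33.3%, 18.6 to 52.2). Auts2 ranked 5 among all genes by IgG peaks, so both genes stood high in both lists.

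Dmd, Rbfox1 and Csmd1 followed with nearly equal numbers. Dmd (chromosome X, 82814664 to 85205050), the gene of dystrophin, which links the cytoskeleton to the extracellular matrix, had 21 ChIP and 16 IgG peaks, and 3 were shared. Rbfox1 (chromosome 16, 5884793 to 7412480), which encodes a splicing regulator of neurons, had 21 and 18, with 3 shared. Csmd1 (chromosome 8, 15892538 to 17535385), the gene of a transmembrane protein with CUB and sushi domains, had 20 and 21, with 2 shared. In each of these genes 18 ChIP peaks were ChIP-specific, the same number as in Ntm, and both lists held many peaks at different places.

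Galnt17 differed most between the lists in favour of the ChIP. This gene of the GalNAc-transferase family (chromosome 5, 130874343 to 131307522), which starts O-linked glycosylation, had 17 ChIP peaks and 7 IgG peaks. An FDR printed as 0 was given to 2 of these ChIP peaks and 3 of these IgG peaks, so the excess lay among peaks of higher FDR. Over the whole lists 9.0% of ChIP and 17.1% of IgG peaks had such an FDR. A single ChIP peak of the 17 overlapped an IgG peak (5.88%, 1.05 to 27.0). Inside the gene body, counted whatever gene the annotation names, 3 of 20 did (15%, 5.24 to 36). Both intervals included the 26.1% of the whole list.

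The other 4 genes had fewer peaks. Cntnap2 (chromosome 6, 45060061 to 47301393), the gene of CASPR2, which clusters potassium channels on axons, had 12 ChIP and 13 IgG peaks with 3 shared. Csmd3 (chromosome 15, 47580638 to 48792558), a relative of Csmd1, had 11 and 6 with 3 shared. Magi2 (chromosome 5, 19219387 to 20704792) had 9 and 10 with 4 shared (44.4%, 18.9 to 73.3), and inside its body 5 of 18 ChIP peaks were shared (27.8%, 12.5 to 50.9). Lrp1b (chromosome 2, 40595290 to 42653598), a large receptor of the LDL receptor family, was nearest to 3 ChIP and 9 IgG peaks, with 1 shared. With 3 ChIP peaks, Lrp1b did not bear out the description of a gene with many peaks: 2046 genes, itself included, had as many or more, although the median gene with any ChIP peak, of 9903, had 1. Intervals of the shared fraction overlapped between neighbours in every case.

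Other genes with counts near these had mostly intergenic peaks. The 6 other genes with the most ChIP peaks were chosen by that count alone. The noncoding gene 4933433F19Rik and Cdh6, a cadherin, had 20 ChIP peaks each, and Gm24246 and Unc5d, a netrin receptor gene, had 19 each. Gm23986 and Pik3c3, a lipid kinase gene of autophagy, had 18 each. All 18 of Pik3c3 and 18 of the 20 of Cdh6 were annotated as intergenic, and the body of Pik3c3 contained 0 ChIP peaks. Unc5d came closest to the 10 genes in this respect, with 11 ChIP peaks in a body of 573 kb. The counts by nearest start site thus mix peaks in a gene with peaks around it.

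Counting the peaks that lay inside the RefSeq gene bodies changed the picture for several genes. The 10 bodies together measured 15.1 Mb and held 215 ChIP and 178 IgG peaks. Of the 215, 130 (60.5%, 53.8 to 66.8) carried the symbol of the gene they lay in. The remaining 85 had been assigned to 24 other genes, mostly predicted or small noncoding genes with their own start sites inside the long one. A further 38 peaks assigned to the 10 genes lay outside the bodies. Of the 215, 43 overlapped an IgG peak (20%, 15.2 to 25.9), slightly under the 26.1% of the whole list. By gene this share ran from 7.69% in Cntnap2 (1.37 to 33.3) to 33.3% in Auts2 (19.2 to 51.2) and in Ntm (17.2 to 54.6). ChIP peaks were the more numerous in 8 bodies, both lists were equal in Lrp1b, and IgG peaks prevailed in Ntm alone. Over all protein-coding gene bodies ChIP peaks were the more numerous too, 7652 against 6210 of IgG.

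Dmd held the most, with 40 ChIP and 31 IgG peaks in 2390 kb, of which 19 ChIP peaks had been given to genes such as Gm23671 and Gm22580. The body of Csmd1 held 30 and 25, and 21 of its 30 ChIP peaks were assigned to Gm25278 (11), Gm16346 (7) and Gm16347 (3). That of Auts2 held 30 and 20, and that of Rbfox1 28 and 21, where 11 ChIP peaks were assigned to 1700123O21Rik. By position, Csmd1 thus equalled Auts2. The body of Ntm held 21 ChIP and 33 IgG peaks, the only excess of IgG. That of Galnt17 held 20 and 8, and 7 of the 20 were assigned to Gm23761. Magi2 held 18 and 17, Cntnap2 13 and 9, Csmd3 8 and 7, and Lrp1b 7 and 7.

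**Figure D2:**
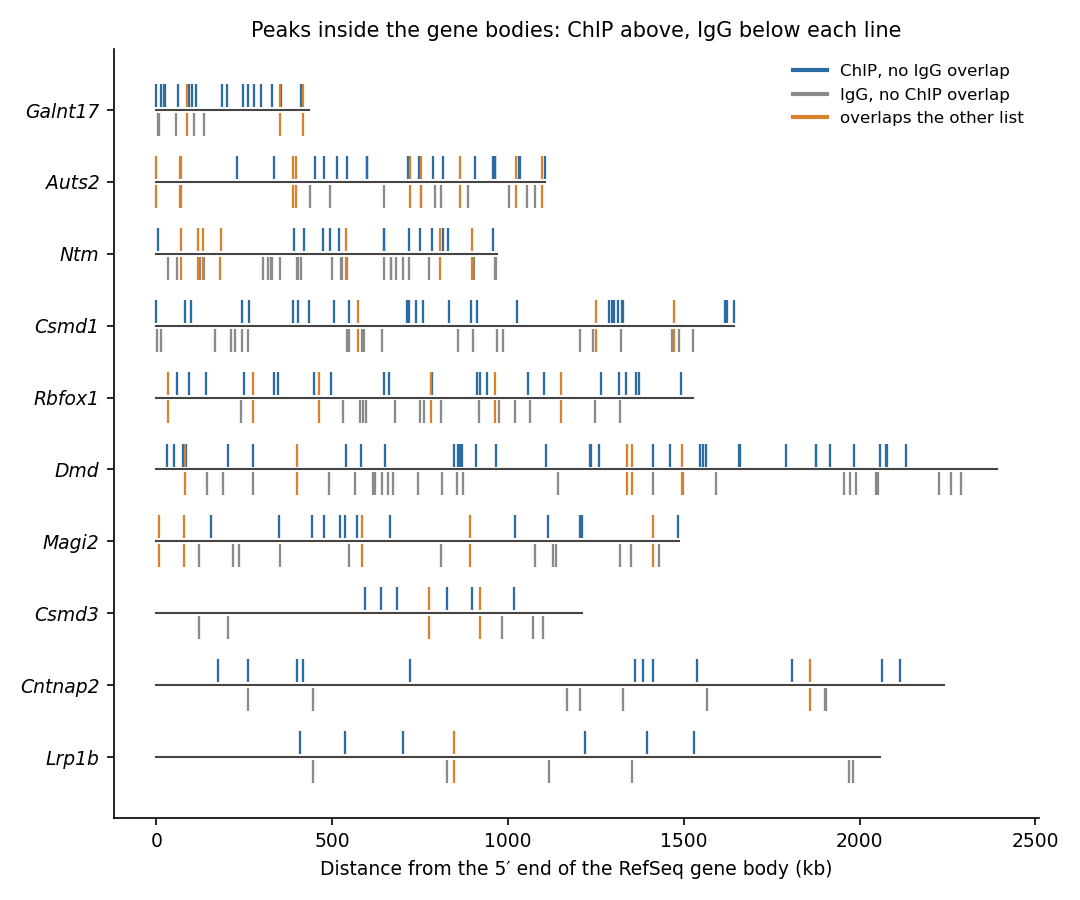
Position of each peak along the 10 gene bodies, as the distance in kb from the 5′ end of the RefSeq gene (horizontal axis), with 1 line per gene ordered by ChIP peaks per Mb. Ticks above a line are ChIP peaks and ticks below it IgG peaks, and orange ticks overlap the other list. Peaks run along the whole of most bodies, while Csmd3 has 7 of its 8 ChIP peaks beyond the midpoint and Cntnap2 has a gap of 638 kb.

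Peaks per Mb of gene body put the genes in another order, from Galnt17 down to Lrp1b. Galnt17, the shortest at 433 kb, had 46.2 ChIP peaks per Mb (exact 95% Poisson interval 28.2 to 71.3) and 18.5 IgG peaks per Mb (7.97 to 36.4). Auts2 had 27.1 (18.3 to 38.7), and Ntm 21.7 (13.4 to 33.1) beside 34.1 per Mb of IgG (23.5 to 47.9). Csmd1 and Rbfox1 both had 18.3 ChIP peaks per Mb, Dmd 16.7 (12 to 22.8) and Magi2 12.1 (7.18 to 19.2). The lowest were Csmd3 with 6.6 (2.85 to 13.0), Cntnap2 with 5.8 (3.09 to 9.92) and Lrp1b with 3.4 (1.37 to 7.01). Neighbours in this order had overlapping intervals. Galnt17 and Lrp1b, at the ends, did not overlap.

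Together the 10 bodies had 14.3 ChIP peaks per Mb (12.4 to 16.3), against 7.41 (7.25 to 7.58) over all protein-coding gene bodies. The IgG mock gave a similar contrast, with 11.8 per Mb (10.1 to 13.7) against 6.02 (5.87 to 6.17). Both lists were thus denser in these genes, which were chosen for their peaks. Density also differed between chromosomes, and the ratio of a gene's ChIP density to that of its own chromosome was 5.63 for Galnt17 and 3.31 for Auts2, both on chromosome 5. It was 3.11 for Ntm and for Rbfox1, 1.9 for Csmd1, 1.48 for Magi2 and 1.43 for Dmd, which lies on the X chromosome with its 11.7 ChIP peaks per Mb. Cntnap2 (0.923), Csmd3 (0.839) and Lrp1b (0.706) were no denser than their chromosomes. The same ratio for IgG was 5.94 for Ntm, 2.68 for Galnt17, 2.62 for Auts2, 2.56 for Rbfox1 and 1.83 for Csmd1. It was 1.66 for Magi2, 1.17 for Dmd, 0.98 for Lrp1b, 0.769 for Csmd3 and 0.712 for Cntnap2. In Ntm, Magi2 and Lrp1b the IgG ratio was the higher, and in the other genes the ChIP ratio.

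**Figure D3:**
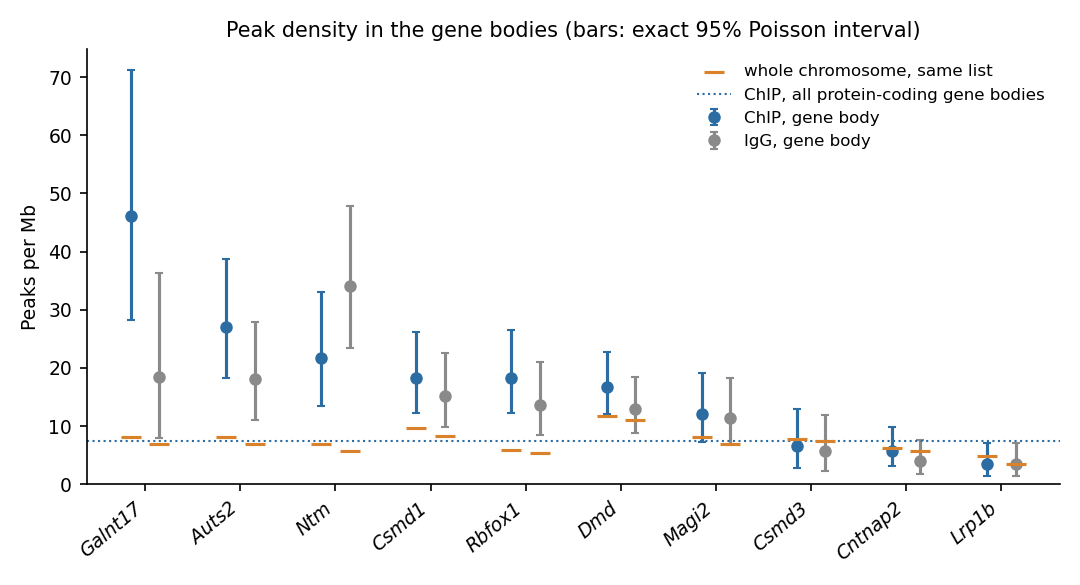
Peaks per Mb of gene body (vertical axis) for the 10 genes, ChIP in blue and IgG in grey, with exact 95% Poisson intervals as bars. Orange dashes give the density of the same list over the whole chromosome, and the dotted line the ChIP density of all protein-coding bodies, 7.41 per Mb. Galnt17 is highest for ChIP with 46.2 and Ntm for IgG with 34.1.

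Long genes as a class carried peaks. Of the 299 protein-coding genes at least as long as Galnt17, 283 (94.6%) had a ChIP peak in the body, as had all 10 genes described here. The other 289 had a median of 8.59 ChIP peaks per Mb (quartiles 4.27 and 13.5), and the 10 genes had a median of 17.5. For IgG the medians were 7.82 per Mb (quartiles 3.53 and 13.2) in the other 289 and 13.4 in the 10 genes. Over the 299 genes, length had a Spearman correlation of 0.555 with ChIP and 0.567 with IgG peak number. The ChIP and IgG densities had one of 0.787. These are descriptions across genes that share both peak lists and the input. Dmd was the longest of all and had the most body peaks, and 4 of the 10 longest genes belonged to the set. By density Galnt17 was first, ahead of the non-members Zfp536 (32.9 per Mb), Cdh4 (32.8) and Caln1 (27.3). Auts2 was the fifth, while Csmd3 (188), Cntnap2 (199) and Lrp1b (250) ranked low among the 299.

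**Figure D4:**
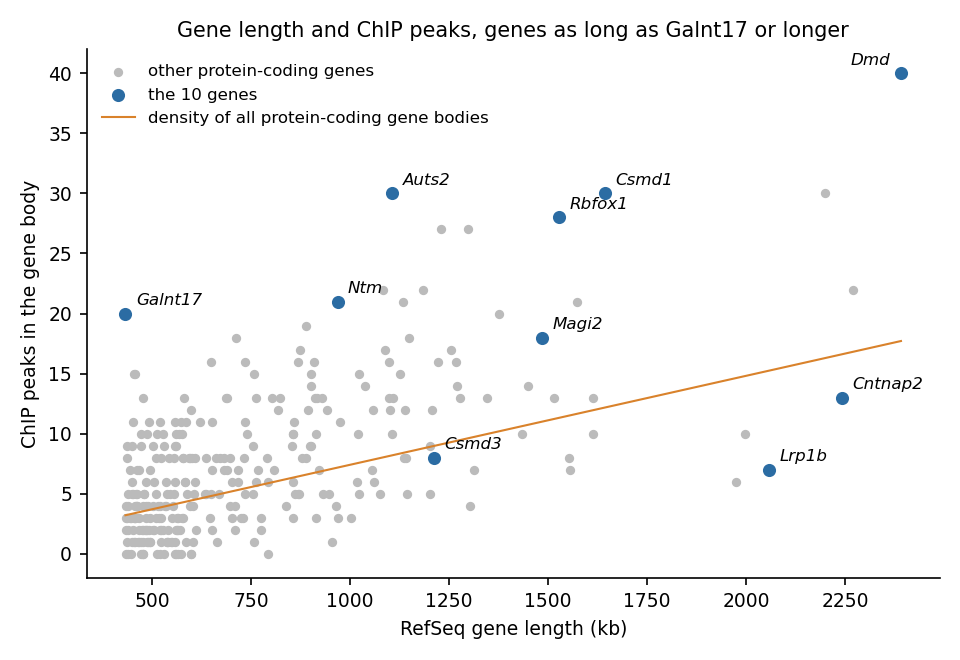
ChIP peaks in the gene body (vertical axis) against RefSeq gene length in kb (horizontal axis) for the 299 protein-coding genes of 433 kb or more, with the 10 genes in blue. The line is the count that the density of all protein-coding bodies, 7.41 per Mb, gives at each length. Dmd stands highest with 40 peaks, and Lrp1b, Cntnap2 and Csmd3 fall below the line.

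Peaks in these genes were intronic in the main. Of the 168 ChIP peaks, 116 (69.0%, 61.7 to 75.5) were annotated as intron, beside 30.3% of all ChIP peaks, and 41 (24.4%) as intergenic, beside 56.4%. The IgG peaks were similar, with 98 of 148 in introns (66.2%, 58.3 to 73.3), beside 29.0% of all IgG peaks. Promoters and exons held 4 ChIP peaks each (2.38%, 0.93 to 5.96), beside 6.37% and 4.95% of all ChIP peaks. Transcription termination sites held 3 (1.79%), beside 1.96%. Intergenic peaks were unevenly spread: Csmd1 had 11 and Rbfox1 10, while Auts2, Dmd and Magi2 had 0. Of the peaks within the RefSeq bodies, 21 were annotated as intergenic, 16 in Rbfox1 and 5 in Dmd, so the annotation and the RefSeq bodies differ there. In introns, sharing with IgG was 24.1% (17.3 to 32.7) in these genes and 24.9% over all intronic ChIP peaks.

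The 4 promoter peaks were at Csmd1, Auts2, Magi2 and Cntnap2, and 3 of them overlapped an IgG peak (75%, 30.1 to 95.4), beside 36% of all promoter ChIP peaks. The ChIP-specific one lay over the start of Csmd1 (chromosome 8, 17535351 to 17535574, FDR 0.0214, mm10), 77 bp upstream by its centre. That of Auts2 was centred 119 bp downstream of the start (chromosome 5, 132543076 to 132543374, FDR 0.00683). That of Cntnap2 was 399 bp upstream (chromosome 6, 45059576 to 45059749, FDR 0.0456), 62 bp short of the promoter window of that gene. The Magi2 peak is the one whose sequence is printed above. Galnt17 had a ChIP peak 165 bp from an annotated start as well (chromosome 5, 131306676 to 131306824), which was annotated as a transcription termination site. In the other genes the nearest ChIP peak was further from a start: Dmd 3224 bp, Csmd3 4057 bp, Rbfox1 4460 bp, Ntm 5409 bp and Lrp1b 13414 bp.

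The peaks with the lowest FDR were mostly shared with IgG. An FDR printed as 0 was given to 14 of the 168 ChIP peaks (8.33%, 5.03 to 13.5; 9.0% of all ChIP peaks), and 13 of these 14 overlapped an IgG peak. Over all ChIP peaks with such an FDR the shared fraction was 90.8%. By nearest start site the exception was an intronic peak of Galnt17 (chromosome 5, 131294201 to 131294499), 300 bp long and 12565 bp from the nearest start. Of the 15 such peaks inside the bodies, 12 were shared. Besides the one in Galnt17, those apart from IgG were another in Galnt17 (131030101 to 131030449) and one in Lrp1b (chromosome 2, 41258576 to 41258874), both assigned to predicted genes. Among ChIP peaks of these genes with an FDR above 0, 26 of 154 were shared (16.9%, 11.8 to 23.6), beside 19.7% of all such ChIP peaks. ChIP-specific peaks were shorter, with a median of 175 bp against 300 bp for shared ones, and had a median FDR of 0.0172 against 0.00617. The whole ChIP list showed the same, with medians of 200 against 300 bp and an FDR of 0.0146 against 0.00594.

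Where a ChIP and an IgG peak overlapped, their ends lay close together in most pairs but not in all. Of the 39 shared pairs, 27 (69.2%) had both ends within 50 bp of one another, beside 66.8% of all pairs. In 3 pairs (7.69%, beside 12.7% of all pairs) both ends were the same: in Auts2 (chromosome 5, 131519601 to 131519999), Ntm (chromosome 9, 29423076 to 29423449) and Cntnap2 (chromosome 6, 46918551 to 46918849). The longest shared ChIP peak was 550 bp, upstream of Cntnap2 (chromosome 6, 44792951 to 44793499), with an FDR printed as 0. Csmd3 had 3 ChIP peaks with an FDR printed as 0, and all 3 were shared (chromosome 15, 47472526 to 47472874, 47539876 to 47540249 and 48015401 to 48015774). The 8 ChIP-specific peaks of Csmd3 had an FDR above 0. Csmd3 was not alone in this: ChIP peaks with an FDR printed as 0 were all shared in Ntm (4), Auts2 (3), Magi2 (1) and Cntnap2 (1). In Galnt17 1 of 2 was shared.

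Among ChIP-specific peaks assigned by nearest start site, the longest was in Dmd, 400 bp in an intron (chromosome X, 84690226 to 84690624, FDR 0.0088). The next ChIP peak of Dmd, 84690751 to 84691074, lay 126 bp beyond it, the closest pair of all 10 genes. The longest ChIP-specific peak of Rbfox1 was 325 bp (chromosome 16, 7248951 to 7249274, FDR 0.00769). In the other genes the longest measured between 225 and 300 bp, as in Cntnap2 (chromosome 6, 45475726 to 45475974, FDR 0.00274) and Magi2 (chromosome 5, 19757401 to 19757674, FDR 0.00503). ChIP-specific peaks, which by definition overlap no IgG peak, seldom had one close by, here as in the whole list. The nearest IgG peak was a median of 23577 bp away, against 36677 bp for all ChIP-specific peaks. Of the 129, 2 (1.55%) had one within 1 kb, beside 2.93% of all ChIP-specific peaks.

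Within the bodies the peaks were scattered along the genes. Neighbouring ChIP peaks assigned to the same gene by nearest start site lay a median of 37751 bp apart. Counted by gene body, an alternative chosen after seeing the data, ChIP peaks lay 39726 bp apart (quartiles 15026 and 82951 bp) and IgG peaks 42251 bp. By gene body, the median gap was 14926 bp in Galnt17, 27176 bp in Auts2 and 25101 bp in Csmd1, but 154726 bp in Lrp1b and 105201 bp in Cntnap2. The widest was the 637826 bp in Cntnap2. Of 205 gaps, 40 (19.5%) were under 10 kb, with 11 in Auts2 and 10 in Dmd. Of the 215 body peaks, 97 (45.1%, 38.6 to 51.8) lay nearer to the 5′ end than to the 3′ end. Csmd3, with 1 of 8, and Magi2, with 11 of 18, departed most from an even split in opposite directions.

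Of the related genes some had many peaks and others none. Of 24 paralogs of the 10 genes, 16 were nearest to a ChIP peak, 14 to a ChIP-specific and 13 to an IgG peak, beside 22.0%, 17.5% and 17.0% of all protein-coding genes. Their bodies had 10.6 ChIP and 10.8 IgG peaks per Mb, beside 7.41 and 6.02 over all protein-coding bodies. Among them Lsamp, which like Ntm encodes an IgLON adhesion protein, held 30 ChIP and 29 IgG peaks in its body, and Opcml of the same family 21 and 18. Csmd2 held 13 and 19. Rbfox2, Lrp1 and Cntnap1 held 0 of either, while Iglon5, of only 17.3 kb, held 1 of each and Galnt9, of 77.4 kb, held 2 ChIP peaks. Of 16 genes of dystrophin-associated proteins, among them Utrn, which is counted with the paralogs too, 9 were nearest to a ChIP peak, 8 to a ChIP-specific and 6 to an IgG peak, beside the same 22.0%, 17.5% and 17.0%. Their bodies had 6.62 ChIP peaks per Mb (4.56 to 9.3), close to the 7.41 of all bodies. Their IgG density was 9.43 peaks per Mb, above the 6.02 of all bodies. Sgcd held 6 ChIP and 13 IgG peaks in its body. Sntg1 held 12 and 6 in its body although it was the nearest gene of 0 peaks. Sspn, of 33.4 kb, held 1 of each, and the bodies of Dag1, Sgca and Sgcb held 0.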

How the data were processed

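Nr1d1 ChIP (3 libraries), IgG mock (1) and input (1) were grouped by sample title. BWA, HOMER and mm10 are named, without versions, per the submitters' processing notes. How peaks were called, and whether libraries were pooled, is not given in the sources used here. Peaks were deposited with an FDR (a q-value, at most 0.05) and a length, and HOMER tables whose deposited score equalled the length in bp of every annotated peak. Unannotated peaks (2 ChIP, both ChIP-specific, and 1 IgG) were left out of counts per gene.

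Overlap meant 1 bp or more. Gene bodies were those of RefSeq on GRCm38.p6, the same build, and the strand of a body was read from the deposited distances. Promoter windows on chromosome 18 were not used. Shares have Wilson and densities exact Poisson intervals at 95% (Python 3.11.15, numpy 2.4.6, pandas 2.3.3, scipy 1.17.1), and the code was checked on simulated data. The 10 genes and all lists (paralogs, dystrophin-associated proteins, other long neuronal genes, long genes not chiefly neuronal, T cell genes with long bodies, T helper markers) were chosen with earlier results of these data known. All 10 genes were named, with the 6 others nearest in ChIP count, and for each the peak nearest to a TSS and its longest peaks. Alternatives changed the assignment, FDR limit, overlap, flanks and members. No test was made, because no value per library is listed.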

Additional observations from a re-analysis of the deposited data

How the results depend on the processing

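The FDR limit moved the most values. At an FDR of at most 0.01, the 10 genes had 56 ChIP, 68 IgG and 27 ChIP-specific peaks, and 4.51 ChIP peaks per Mb of body, against 3.2 over all protein-coding bodies. With that limit in both lists, 42.9% of their ChIP peaks overlapped an IgG peak, beside 39.1% of all. Among ChIP peaks of 200 bp or longer, an alternative chosen after seeing the data, the shared fraction was 34.7%, beside 37.3% of all. Taking peaks by gene body, also chosen later, raised the intron share to 84.7%. The other alternatives gave values close to the main ones: a shared fraction between 20% (gene bodies) and 24.4% (an IgG peak within 1 kb), and 14.2 ChIP peaks per Mb with 5 kb on each side or 13.3 without Auts2, which ties with Ntm for the most ChIP peaks. A class by overlap with exons was not run, since exon annotation was not used here. No paired analysis was possible because the lists cover each antibody as a whole. For the same reason no library could be left out, and depth is unknown.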

Other observations

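Further lists of long genes gave values to set beside those of the 10 genes. All 26 other long neuronal genes listed, such as the neurexin gene Nrxn3 and the teneurin genes Tenm2 and Tenm3, were nearest to a ChIP, a ChIP-specific and an IgG peak, beside 22.0%, 17.5% and 17.0% of all protein-coding genes. Their bodies had 10 ChIP peaks per Mb (exact 95% Poisson interval 8.9 to 11.2) and 11.1 IgG peaks per Mb. The values over all protein-coding bodies were 7.41 and 6.02. Tenm2 held 27 ChIP and 22 IgG peaks, and Tenm3 27 and 21. Of 15 long genes not chiefly neuronal, 12 were nearest to a ChIP peak, 12 to a ChIP-specific and 11 to an IgG peak, beside the 22.0%, 17.5% and 17.0% of all protein-coding genes. Their bodies had 5.96 ChIP peaks per Mb (4.76 to 7.35) and 5.4 of IgG, beside 7.41 and 6.02 over all protein-coding bodies.

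Genes with long bodies that work in T cells were nearest to a ChIP peak at about the share of all genes, and their bodies held few peaks per Mb. Of 18, 4 were nearest to a ChIP peak, all 4 to a ChIP-specific one, and 1 to an IgG peak, beside the 22.0%, 17.5% and 17.0% of all protein-coding genes. Their bodies, 4.2 Mb in all, held 8 ChIP peaks (1.91 per Mb, 0.823 to 3.76, beside 7.41 over all protein-coding bodies) and 1 IgG peak (0.238 per Mb, beside 6.02). Foxp1 (597 kb) and Bach2 (348 kb), transcription factors of lymphocytes, held 0 of either, and Arhgap15 (647 kb) held 3 ChIP peaks and 1 IgG peak. Ikzf1 went the other way, with 2 ChIP and 0 IgG peaks in 88 kb (22.7 ChIP peaks per Mb). ChIP peaks lay in 5 of the 18 bodies. The T cell genes had a median length of 153 kb, against 1507 kb for the 10 genes. Foxp1, Arhgap15 and Dock2 (557 kb, 1 ChIP peak in the body) are nevertheless longer than Galnt17 (433 kb). Of 6 T helper markers, 1 of which (Il12rb2) is also in the T cell list, Ifng and Cxcr3 were nearest to a ChIP-specific peak each and 0 to an IgG peak, beside 17.5% and 17.0% of all genes, and their bodies held 0 ChIP peaks in 0.15 Mb. No difference between these lists was tested.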
